A study of Drosophila melanogaster with 48 samples.

Results

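The M12 background is a pair of nearly isogenic *Drosophila melanogaster* lines, both inbred from 1 isofemale line collected in Munich, Germany, and its response to oxidative stress is described here. The members were chosen by name: every library whose label begins with M12D3 or M12N3, which gave 8 of the 48 libraries in the series, 4 from stressed flies and 4 from control flies. M12D3 carries a deletion in the 3′ UTR (untranslated region) of *MtnA*, a metallothionein gene, and M12N3 does not, and each line had 2 stress and 2 control libraries. Stressed males, aged 5 to 7 days, spent 24 h on food with 75 mM menadione sodium bisulfite (MSB), and control males of the same age spent 24 h on food without it. Messenger RNA was sequenced from pooled whole heads. The other cosmopolitan lines had the same dose and time: M9D3 (deletion) and M9N1 (nondeletion) from Germany, C2D3 (deletion) and C2N1 (nondeletion) from Cyprus, and the Malaysian lines KL01 (deletion) and KL02 (nondeletion), which are separate isofemale lines. Lines ZI197, ZI254, ZI273 and ZI418 from Zambia, all nondeletion, were exposed for 18 to 20 h and were compared with M12 only in an alternative. Their libraries also entered the joint fit and the joint normalization of all lines, which gave some of the values below. Each background is thus represented by a pair of lines, and a difference between backgrounds is a difference between these lines.

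MSB is a form of menadione, a quinone that cycles between reduced and oxidized states inside cells and passes electrons to oxygen, so that superoxide and hydrogen peroxide are made. Flies answer oxidants and electrophiles through the transcription factor CncC, which its partner Keap1 holds in check and which drives glutathione S-transferases and enzymes of glutathione synthesis. Damaged proteins are met by heat shock proteins under the factor Hsf, while the JNK and JAK-STAT pathways, the Toll and Imd immune pathways and nutrient storage in the fat body are also known to change in stressed flies.

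The 8 libraries held between 39540735 and 50949872 counts under stress and between 27223075 and 46717781 in controls. The gene markers fitted heads. Photoreceptor markers summed to between 42510 and 60620 CPM (the share of a library's counts taken by a gene, scaled to the same total in each library after trimmed-mean normalization) under stress and to between 40120 and 51780 CPM in controls. Testis and accessory gland markers stayed below 1 CPM in sum, between 0.386 and 0.918 CPM under stress and between 0.298 and 0.410 CPM in controls. Counts per gene cannot show the 3′ UTR deletion, so the *MtnA* genotype was taken from the labels. In a principal component analysis of the 8 libraries, treatment lay on PC1, which held 86.8% of the variance. The stress libraries of M12D3 scored 23.29 and 21.6, those of M12N3 scored 12.61 and 2.189, and the controls scored between -16.04 and -14.19. Stress replicate 2 of M12N3 was therefore the stress library nearest to the controls, and the main counts are given with and without it. In the whole series, stress replicate 1 of M9N1 stood far from all others and was not used.

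Stress changed 4012 of 10955 tested genes in M12, or 36.6% (edgeR quasi-likelihood test with line as block, adjusted p below 0.05). Of these, 1975 rose, which is 18% of the genes tested, and 2037 fell, which is 18.6%. Among them, 612 rose and 531 fell by more than 2-fold. Without stress replicate 2 of M12N3 the counts were 2325 higher and 2296 lower. The median log2 fold change over all tested genes was 0.008. The counts of each gene list below are to be set beside the general shares of 18% and 18.6%. The 4 stress libraries did not overlap the 4 control libraries in 3532 genes (32.2%), of which 3110 were among the called genes. In the fit over 12 lines 3581 genes were called in M12D3 and 1096 in M12N3. Of the 10955 genes tested in M12, 995 were called there in both lines with the same sign. The sign was the same in both lines in all 4012, which a test of their mean largely fixes. Whole heads hold many cell types, so fewer cells of a type and less RNA per cell cannot be told apart in any of these values.

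**Figure D1:**
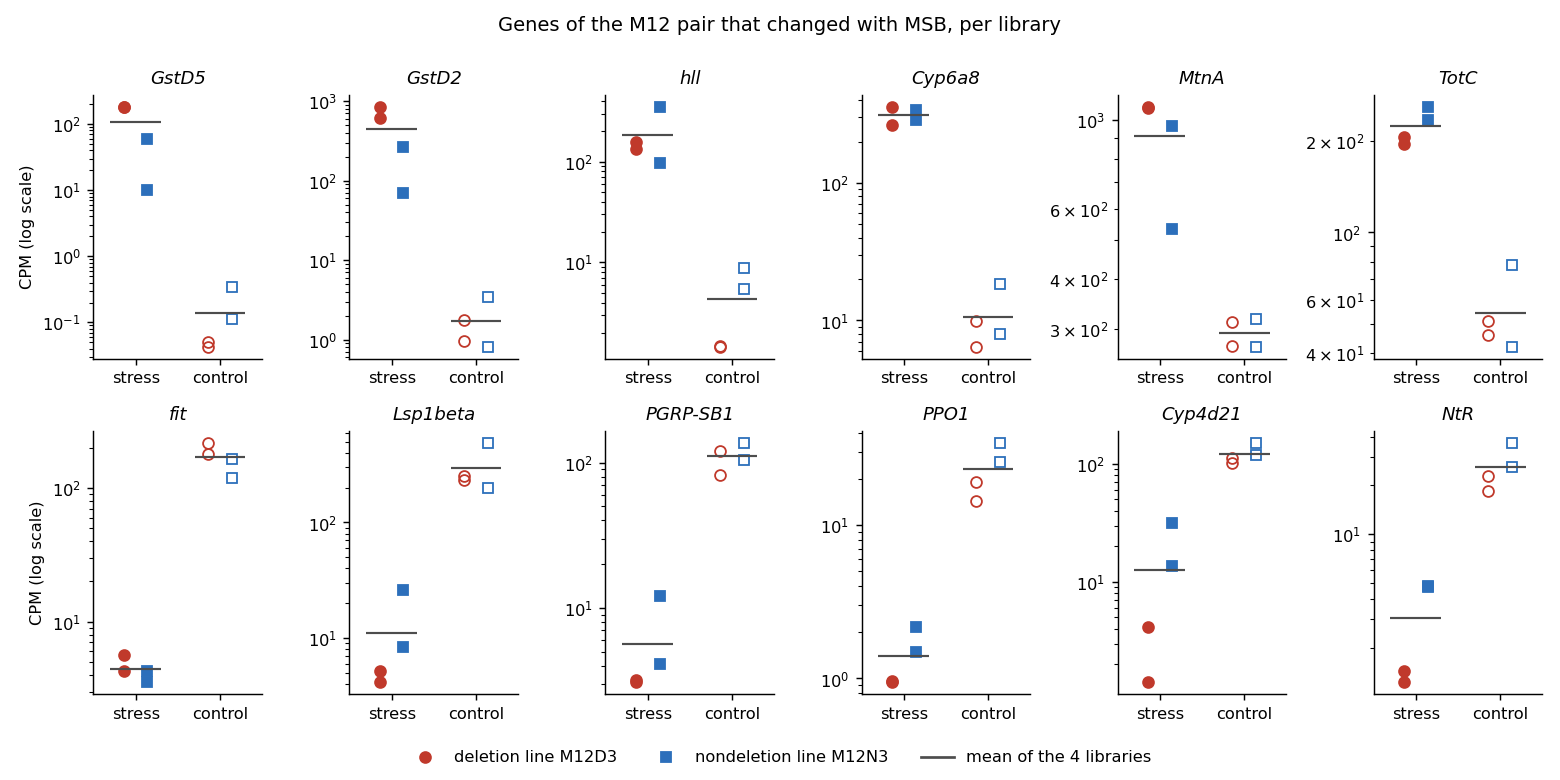
CPM on a log axis of 12 genes in each M12 library, stress on the left of each panel and control on the right, with M12D3 and M12N3 marked. In *GstD5*, *GstD2*, *hll*, *Cyp6a8*, *MtnA* and *TotC* all 4 stress libraries lie above all 4 controls, and in the other 6 genes they lie below.

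The largest increases were in Delta-class glutathione S-transferases, which join glutathione to reactive molecules and lie side by side on chromosome 3R. Of 11 tested members 9 rose and none fell, with a median log2 fold change of 3.17. *GstD5* (FBgn0010041, BDGP6 3R:12375733-12376572, + strand) had 179 and 178 CPM in the stressed M12D3 libraries and 59.6 and 10.1 CPM in the stressed M12N3 libraries, against 0.0432 and 0.0513 CPM in the M12D3 controls and 0.346 and 0.112 CPM in the M12N3 controls. The groups were far apart, with 524 to 8807 counts per stress library and 2 to 15 per control library, which gave 9.45 ± 0.92 as the log2 fold change (± SE throughout, adjusted p = 0.0002). *GstD2* had 612 and 835 CPM in stressed M12D3 and 266 and 70.3 CPM in stressed M12N3, against 1.75 and 0.949 CPM in M12D3 controls and 3.43 and 0.82 CPM in M12N3 controls (7.62 ± 0.82, adjusted p = 0.00033). *GstD6*, *GstD7* and *GstD4* rose by 8.75, 7.86 and 7.32 on the log2 scale, from control sums of only 12, 9 and 10 counts over 4 libraries. *GstD10* (3.17), *GstD9* (2.03), *GstD1* (1.93) and *GstD3* (1.64) rose less, and *GstD8* (1.51 ± 0.52) and *GstD11* (0.15 ± 0.13) did not pass. These genes are close paralogs, and how reads shared between paralogs were counted is not given in the sources used here, so the split among them is uncertain. Stress replicate 2 of M12N3 was the lowest stress library for *GstD5*, *GstD6* and *GstD2*, and without it 10 of the 11 rose.

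Epsilon-class glutathione S-transferases were mixed, with 7 of 14 higher, 3 lower and a median of 0.64. *GstE7* (3.46), *GstE3* (3.30) and *GstE8* (3.04) rose most, while *GstE14* (-0.96), *GstE12* (-0.70) and *GstE2* (-0.62) fell. Without control replicate 1 of M12D3 4 rose, and without stress replicate 2 of M12N3 8 rose. In the remaining cytosolic classes 6 of 10 rose, led by *GstO3* (1.96 ± 0.29), and *GstZ2*, *GstZ1* and *GstO1* fell by 0.87, 0.67 and 0.44.

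Some genes of glutathione synthesis and of the thioredoxin system rose. Among 25 antioxidant genes 6 rose and 4 fell, with a median of 0.06, close to that of all genes. These counts were not far from the shares of all tested genes, 18% higher and 18.6% lower. The 6 were *Keap1* (1.33 ± 0.12), *Trxr1*, the thioredoxin reductase (1.31 ± 0.15), *Gclc*, the catalytic subunit of glutamate-cysteine ligase that starts glutathione synthesis (1.24 ± 0.18), both glutathione synthetase genes *Gss1* (0.83) and *Gss2* (0.65), and catalase *Cat* (0.54). Extracellular superoxide dismutase *Sod3* fell by 1.56, and *Prx4*, *Men* and *Prx2* also fell. The intracellular superoxide dismutases *Sod1* (-0.04 ± 0.08) and *Sod2* (-0.15 ± 0.07), the ligase's regulatory subunit *Gclm* (0.26 ± 0.21) and *cnc*, which encodes CncC (0.06 ± 0.06), did not pass the test. Without stress replicate 2 of M12N3 the counts in this list were 11 higher and 4 lower.

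Detoxification genes moved in both directions. Among 78 cytochrome P450s, which oxidize foreign compounds, hormones and fatty acids, 26 rose and 22 fell, and 17 rose without either control of M12D3. *Cyp6a8*, an insecticide- and drug-responsive P450, had 264 and 355 CPM in stressed M12D3 and 336 and 289 CPM in stressed M12N3, against 9.89 and 6.47 CPM in M12D3 controls and 18.4 and 7.98 CPM in M12N3 controls. All 4 stress libraries lay close together here, with a log2 fold change of 4.89 ± 0.31 (adjusted p = 4.9e-05). *Cyp12d1-p* (3.74) and *Cyp12d1-d* (3.46), which are near-identical copies and whose separate values are uncertain, and *Cyp4ad1* (3.31) followed. *Cyp4d21*, a P450 of the male head fat body, fell by 3.78, with 1.42 and 4.18 CPM in stressed M12D3 and 13.6 and 31.6 CPM in stressed M12N3, against 101 and 111 CPM in M12D3 controls and 118 and 151 CPM in M12N3 controls. Of 28 UDP-glycosyltransferases, which attach sugars to small molecules, 10 rose and 4 fell, led by *Ugt37A2* (5.63 ± 0.53) and *Ugt37C2* (3.15 ± 0.58).

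Of the 6 metallothioneins, small proteins that bind copper and other metals, 4 passed the filter on low counts and 3 of these rose. *MtnA* (FBgn0002868, 3R:9783407-9784370, - strand), whose 3′ UTR differs between the lines, had 1069 and 1075 CPM in stressed M12D3 and 963 and 535 CPM in stressed M12N3, against 312 and 273 CPM in M12D3 controls and 318 and 271 CPM in M12N3 controls (1.61 ± 0.19, adjusted p = 0.00048). *MtnE* rose by 5.10 ± 0.79, but its stress values were 18.5 and 24.6 CPM in M12D3 and 21.7 and 1.64 CPM in M12N3, against 0.367 to 0.539 CPM in the 4 controls, so stress replicate 2 of M12N3 stood well below the other stress libraries. *MtnD* rose by 4.24 ± 0.67 and *MtnF* (0.11 ± 0.12) did not pass. Among 13 further copper and iron genes 3 rose, including both ferritin subunits *Fer1HCH* (0.78) and *Fer2LCH* (0.44), and 5 fell, including the copper importer *Ctr1B* (-0.61) and the transferrin *Tsf1* (-1.95). The number that rose was 1 without any of 6 libraries, the exceptions being control replicate 1 and stress replicate 2 of M12N3.

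Most heat shock genes rose. Of 11 small heat shock proteins, which hold unfolded proteins in solution, 8 rose and none fell, with a median of 1.11, led by *Hsp26* (2.74 ± 0.50), *Hsp22* (2.63 ± 0.57) and *Hsp27* (2.40 ± 0.41). Of 16 genes for Hsp70 and its partners 13 rose and none fell, with a median of 0.96. *Hsp70Bbb* had 291 and 398 CPM in stressed M12D3 and 140 and 17.9 CPM in stressed M12N3, against 8.34 and 7.34 CPM in M12D3 controls and 13.6 and 6.37 CPM in M12N3 controls (4.21 ± 0.78, adjusted p = 0.0037). The 6 *Hsp70* genes are near-identical copies and their separate values are uncertain. The constitutive *Hsc70-4* rose by 0.35 and *Hsf*, the factor that drives the heat shock genes, rose by 0.30. Without control replicate 1 of M12D3 6 of the 16 were called, and without stress replicate 2 of M12N3 14 were.

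Genes of the integrated stress response and of the endoplasmic reticulum went different ways. Of 20 genes 6 rose and 7 fell, and 3 rose without control replicate 2 of M12D3. *Thor*, the translation repressor 4E-BP (1.76 ± 0.29), *Xrp1* (1.06 ± 0.12) and its partner *Irbp18* (0.40), and *Xbp1* (0.77) rose, while the folding enzymes and chaperones *ERp60* (-0.86), *Pdi* (-0.68) and *Calr* (-0.64) fell. In the JNK list 5 of 15 rose and 2 fell. *Gadd45* (3.99 ± 0.49), *Ets21C* (2.72 ± 0.51) and *Jra*, the fly Jun (0.81), rose, and *egr*, the fly tumor necrosis factor (-1.18), fell. The JNK phosphatase *puc* (0.32 ± 0.12) did not pass. In the cell death and p53 list 4 of 11 rose and none fell, led by *Corp* (1.06) and *Diap1*, the caspase inhibitor (0.58), and 7 rose without stress replicate 2 of M12N3. In the autophagy list the cargo receptor *ref(2)P* rose by 1.32 ± 0.20, 3 others of 20 rose and *Atg3* fell. Rises in this list were near the 18% of all tested genes.

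Immune genes mainly fell. Among 15 tested antimicrobial peptides 1 rose and 8 fell, with a median of -1.47. *Drs*, the antifungal peptide drosomycin (FBgn0283461, 3L:3369556-3369942, + strand), was the one that rose, with 502 and 491 CPM in stressed M12D3 and 55.5 and 10.9 CPM in stressed M12N3, against 9.91 and 7.06 CPM in M12D3 controls and 11.1 and 7.04 CPM in M12N3 controls (3.89 ± 0.97, adjusted p = 0.014). The rise was large in M12D3, and 1 stressed M12N3 library lay within the range of the controls. *DptB*, an antibacterial diptericin, had 3.86 and 6.58 CPM in stressed M12D3 and 5.3 and 1.97 CPM in stressed M12N3, against 40.8 and 3.33 CPM in M12D3 controls and 29.5 and 15.6 CPM in M12N3 controls (-2.36 ± 0.67, adjusted p = 0.024). Control replicate 2 of M12D3 overlapped the stress libraries for this gene. *DptA* (-3.22), *Mtk* (-2.87), *Dro* (-2.47), *AttC* (-2.41), *Drsl4* (-1.87), *AttA* (-1.85) and *Drsl5* (-1.47) also fell, while *AttB* (-0.94 ± 0.36) did not pass. Without control replicate 1 of M12D3 none rose and 4 fell, and *Drs* was not called without either M12D3 control (adjusted p = 0.064 and 0.051). Among 26 peptidoglycan recognition proteins, related receptors and Bomanins, 4 rose and 19 fell, with a median of -0.73, and 2 rose without any one of the M12D3 libraries. *PGRP-SB1*, a secreted peptidoglycan amidase, had 3.1 and 3.19 CPM in stressed M12D3 and 4.1 and 12 CPM in stressed M12N3, against 119 and 82.5 CPM in M12D3 controls and 137 and 105 CPM in M12N3 controls (-4.41 ± 0.37, adjusted p = 0.00013). Of the genes that fell, 12 were Bomanins, short secreted peptides of the Toll pathway, among them *BomBc2* and *BomBc1* at -1.81 each. *PGRP-SC2* (1.90 ± 0.36) and *PGRP-LB* (0.71 ± 0.10), both amidases that dampen Imd signalling, rose.

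Turandot peptides, secreted under stress and through JAK-STAT signalling, split. *TotC* had 195 and 207 CPM in stressed M12D3 and 236 and 259 CPM in stressed M12N3, against 51.1 and 45.8 CPM in M12D3 controls and 78.3 and 42 CPM in M12N3 controls (2.05 ± 0.17, adjusted p = 0.00012). *TotB* (4.72 ± 0.67) and *TotA* (1.35 ± 0.17) rose, *TotX* fell by 1.48 ± 0.25, and *TotM* (-0.58 ± 0.36, adjusted p = 0.25) did not pass. The JAK-STAT ligands *upd3* (3.92 ± 0.69) and *upd2* (3.76 ± 0.76) and the feedback inhibitor *Socs36E* (0.57 ± 0.11) rose, while the transcription factor *Stat92E* fell by 0.70. In the whole list 7 of 12 rose and 2 fell, with a median of 0.43.

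**Figure D2:**
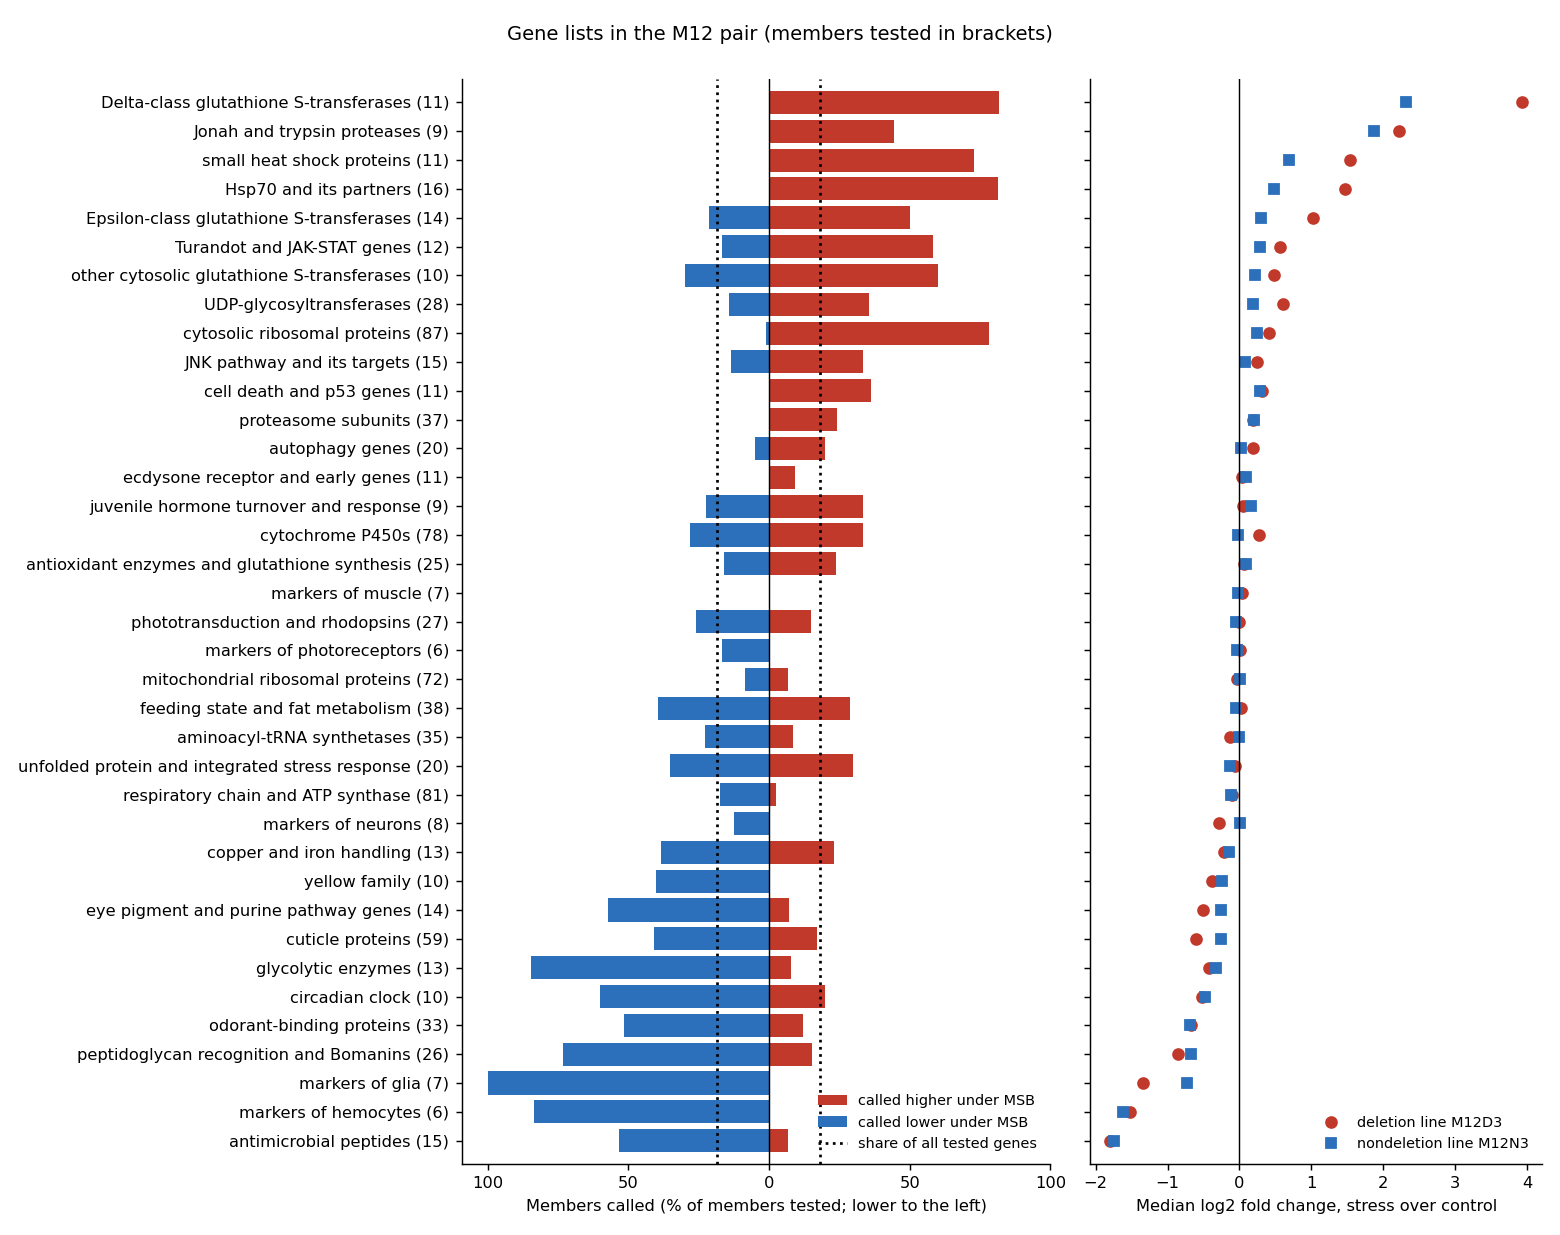
Share of the tested members of each gene list, in percent, called higher or lower in stressed M12 flies, beside the median log2 fold change of each list in M12D3 and M12N3. Delta-class glutathione S-transferases, heat shock genes and cytosolic ribosomal proteins stand on the higher side, and glycolytic enzymes, Bomanins with peptidoglycan recognition proteins, and glial and hemocyte markers on the lower side.

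Genes of feeding and fat storage held some of the steepest decreases. *fit* (FBgn0038914, 3R:21883924-21884454, - strand), a secreted satiety peptide made in the fat body, had 4.27 and 5.67 CPM in stressed M12D3 and 3.54 and 4.25 CPM in stressed M12N3, against 218 and 181 CPM in M12D3 controls and 118 and 164 CPM in M12N3 controls. The stress libraries were nearly equal in both lines, with a log2 fold change of -5.25 ± 0.16 (adjusted p = 2.3e-06). The hexamerin storage proteins *Lsp1beta* and *Lsp2* fell by 4.97 ± 0.50 and by 3.69 ± 0.31. *Lsp2* was at 138 to 407 CPM in the 4 stress libraries, against 2614 to 3395 CPM in the 4 controls. *tobi*, an alpha-glucosidase under insulin control (-3.25), *Lsd-1*, a perilipin of lipid droplets (-3.14 ± 0.27), *sug*, a sugar-responsive transcription factor (-2.15 ± 0.21), the fatty acid synthase *FASN1* (-1.94), and *AkhR*, the receptor of adipokinetic hormone (-1.54), fell. In the same list the lipases *mag* (5.09 ± 0.61) and *bmm* (1.44 ± 0.19), the insulin receptor *InR* (1.28 ± 0.16), the insulin-binding protein *ImpL2* (0.75 ± 0.15) and the amylase *Amy-p* (2.00 ± 0.28) rose. Altogether 11 of 38 rose and 15 fell. Of 9 Jonah and trypsin proteases, digestive enzymes of the gut, 4 rose and none fell, led by *Jon25Bii* (7.08 ± 0.92, 4 counts in the 4 controls together). Whether these low counts came from gut tissue left on the heads was not tested. The summed midgut markers were at 6.30 to 12.9 CPM under stress and 5.97 to 8.64 CPM in controls. Most of the control sum was *Mal-A1*, which was at 5.51 to 8.04 CPM in controls with all 48 libraries normalized together, and fell (-0.42). Of the 4 midgut markers tested 2 rose, *Jon25Bii* and *Jon65Aiv*, and 1 fell, with a median of 1.80.

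Glycolytic enzymes mostly fell and cytosolic ribosomal proteins mostly rose, both by small amounts. Of 13 glycolytic enzymes 11 fell, with a median of -0.35, led by the glucokinase-like hexokinase *Hex-C* (-1.38), and *Ldh*, lactate dehydrogenase, rose by 1.41 ± 0.47. Over all tested genes 18.6% fell and 18% rose. Among 81 subunits of the respiratory chain and ATP synthase 14 fell and 2 rose, neither above these shares, with a median of -0.10. Between 4 (without stress replicate 1 of either line or control replicate 1 of M12D3) and 22 (without stress replicate 2 of M12N3) fell when single libraries were left out. Cytosolic ribosomal proteins rose in 68 of 87 cases and fell in 1, *RpS15Ab* (-0.44), with a median of 0.34, and between 40 (without control replicate 2 of M12D3) and 70 (without stress replicate 2 of M12N3) rose when single libraries were left out. *RpLP2*, of the ribosomal stalk, rose by 0.60 ± 0.11. Mitochondrial ribosomal proteins did not share this, with 5 of 72 higher and 6 lower, and 0 to 4 higher and 1 to 6 lower when single libraries were left out. Proteasome subunits rose in 9 of 37 cases, with none lower, by 0.29 (*Rpn10*) to 0.47 (*Prosalpha7*), and 19 rose without stress replicate 2 of M12N3 against 3 to 9 without any other single library. Of 35 aminoacyl-tRNA synthetases 3 rose and 8 fell, with 6 and 10 without stress replicate 2 of M12N3 and 3 and 4 with a replicate block.

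Sensory, clock and surface genes fell more often than they rose. Of 10 clock genes 6 fell, among them *tim* (-1.0 ± 0.10), *vri* (-0.83 ± 0.07) and *per* (-0.66 ± 0.12), and the neuropeptide gene *Pdf* (0.42 ± 0.11) and *jet* (0.22) rose, neither of them called without either M12D3 control. Sampling times within the day are not used here, so a shift of the daily cycle and a change of level cannot be told apart. Of 33 odorant-binding proteins, which carry odorants in sensory hairs, 17 fell and 4 rose, with *Obp83g* at -2.22 ± 0.33 and *Obp99d* at 4.31 ± 0.25. Among 59 cuticle proteins 24 fell, such as *Cpr76Bc* (-3.70 ± 0.25), and 10 rose, led by *Cpr31A* (7.31 ± 0.66, with 1 or 2 counts in each control), and the number that rose lay between 4 (without stress replicate 1 of M12N3) and 15 (without its stress replicate 2). Of 14 eye pigment genes 8 fell, led by *cd* (-1.65) and *Pu* (-1.33), and *mal* rose by 1.29. Of 27 phototransduction genes 4 rose and 7 fell, not far from the 18% and 18.6% of all tested genes. The 3 most lowered, *santa-maria* (-1.29), *ninaD* (-1.19) and *ninaB* (-1.14), act in the uptake and cleavage of carotenoids for visual pigment. The main rhodopsin *ninaE* (0.17 ± 0.10) did not pass. Of 10 yellow family genes 4 fell, led by *yellow-e* (-3.54 ± 0.23). The activity-regulated capsid-like genes *Arc2* (2.88 ± 0.42) and *Arc1* (2.22 ± 0.42) rose and *Hr38* fell by 0.48. Among hormone genes, 3 of 9 for juvenile hormone turnover and response rose, including the epoxide hydrolase *Jheh1* (1.75), and 2 fell, and of 11 ecdysone genes *Hr4* alone changed (0.49).

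Other large changes fell outside these lists. *hll* had 133 and 157 CPM in stressed M12D3 and 347 and 96.6 CPM in stressed M12N3, against 1.49 and 1.46 CPM in M12D3 controls and 8.85 and 5.41 CPM in M12N3 controls (5.67 ± 0.52, adjusted p = 0.00017). *CG14395* (6.71), *CG5246* (6.01) and *CG8299* (6.0) were also among the 10 largest increases at a mean log2 CPM of at least 1. *PPO1*, a prophenoloxidase made in crystal cells and used in melanization, had 0.964 and 0.949 CPM in stressed M12D3 and 1.49 and 2.18 CPM in stressed M12N3, against 19.2 and 14.3 CPM in M12D3 controls and 34.6 and 25.7 CPM in M12N3 controls (-4.07 ± 0.17, adjusted p = 1.7e-05). *CG9377* (-4.68), *CG13722* (-3.75) and *CG4950* (-3.55) were also among the 10 largest decreases.

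Several cell type markers moved with the treatment, and their part in the results above was not tested. All 7 glial markers fell, with a median of -1.07 and a summed level of 1642 to 2681 CPM under stress, against 3811 to 4047 CPM in controls. The GABA transporter *Gat* (-1.76 ± 0.18) and the astrocyte gene *alrm* (-1.27 ± 0.21) fell most, and *repo*, the factor that defines glia, fell by 0.68. Of 6 hemocyte markers 5 fell, with a median of -1.43 and a sum of 108 to 134 CPM under stress, against 283 to 332 CPM in controls, led by *Hml*, a clotting protein (-3.32 ± 0.36), and the phagocytic receptors *eater* (-3.25 ± 0.31) and *NimC1* (-2.27 ± 0.17). The 5 fat body markers summed to 2092 to 5513 CPM under stress, against 12320 to 15050 CPM in controls, with 2 higher and 3 lower, and this sum was carried mainly by *Lsp2*, *apolpp* and *Tsf1*. Neuronal markers summed to 3772 to 4518 CPM under stress and 3906 to 4772 CPM in controls, with 1 of 8 lower, and none of 7 muscle markers passed (2287 to 3441 CPM under stress, 2614 to 3306 CPM in controls). Photoreceptor markers had 1 of 6 lower, *chp* (-0.44). Of 4 oenocyte markers 2 rose, with sums of 15 to 19.9 CPM under stress and 11.1 to 12.9 CPM in controls.

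The other backgrounds responded in the same main direction. Of the 4012 genes called in M12, 3823 had the same sign as the mean response of M9, C2 and KL. The same test called 37.9% of genes in M9, 26.5% in C2 and 21.9% in KL, with 3 stress libraries in M9 and 4 in each of the others. Over 9188 genes the responses of M12D3 and M12N3 followed the mean of the lines of the other backgrounds with Pearson's r of 0.893 and 0.838 and slopes of 1.06 and 0.654. This is a correlation across genes, which are not independent replicates. M12D3 thus sat among the stronger lines, and M12N3 had the smallest slope of the 8, next to KL02 with 0.702. The M12N3 slope includes its stress replicate 2, the stress library nearest to the controls, and is not given without it.

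The responses themselves differed in few genes. In a test of the mean M12 response minus the mean response of M9, C2 and KL, 292 of 11800 genes were called (2.47%). Of these, 39 had a higher response in M12 (0.331%) and 253 a lower one (2.14%). Higher and lower are used here for the signed log2 fold change. A gene that fell less in M12 is thus higher, and one that fell further is lower. The same test set apart 5.16% of genes in M9, 1.03% in C2 and 1.02% in KL, each against the other 3 backgrounds. Without stress replicate 2 of M12N3 there were 37 higher and 137 lower. Each other M12 library left out gave 100 calls (stress replicate 1 of M12D3) to 175 calls, except stress replicate 1 of M12N3, without which 401 were called. Among the 253, the median log2 fold change was -0.08 in M12 and 0.60 in the other backgrounds, and M9 was the background farthest from M12 in 170. Where M9 was not used, 93 genes were called, 27 higher and 66 lower, of which 80 were among the 292. Of the 253 genes, 99 fell in M12, 74 rose, and the others did not pass the M12 test. Both M12 lines lay outside the range of the 6 other lines in 137 of the 253 and in 27 of the 39. In the rest at least 1 M12 line lay among the others. The genes were picked for a difference from these same lines, so such counts are partly fixed by that choice. The share among all tested genes is not given here. Levels also differed apart from the response, with 18% of genes called between M12 and the other controls and 20.9% between M12 and the other stress libraries. Of the 253 genes, 119 differed in level under stress and not in controls, and 73 in controls and not under stress.

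**Figure D3:**
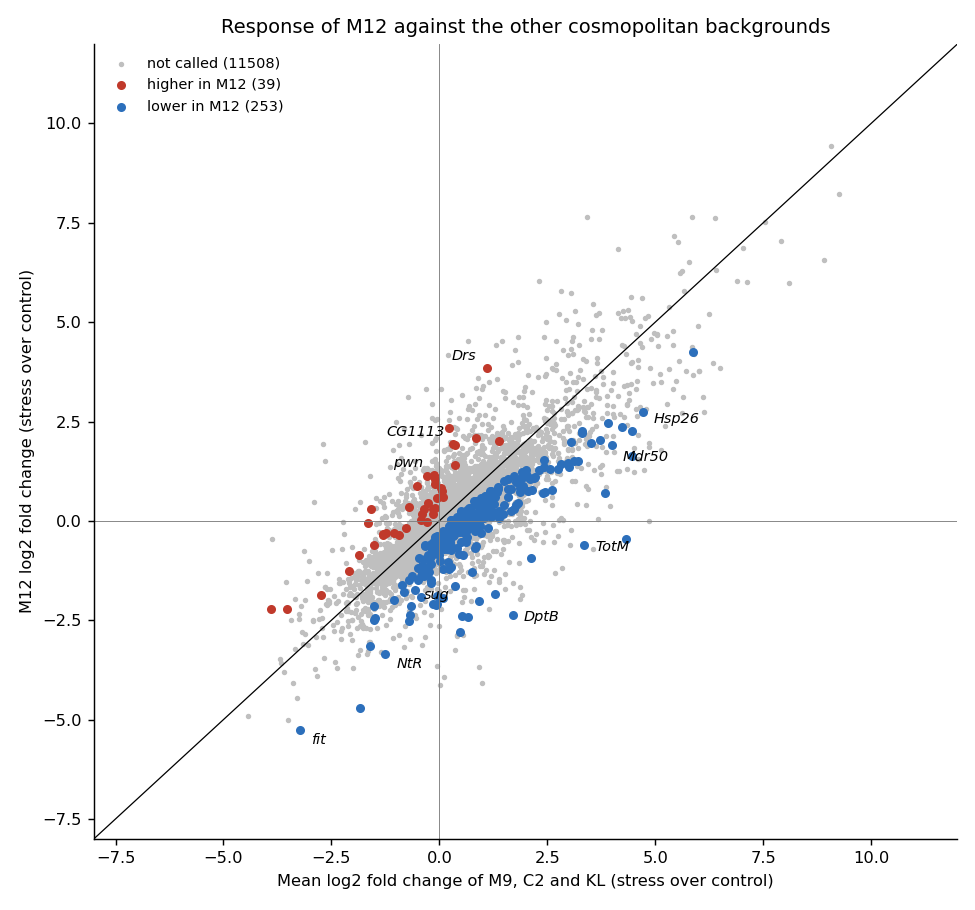
Log2 fold change under MSB in M12 against the mean log2 fold change in M9, C2 and KL for 11800 genes, with 39 genes of higher response in M12 in red, 253 of lower response in blue and the rest in grey. Most points run along the diagonal, and *TotM* and *DptB* lie far below it.

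Of the 53 called genes that lie in the gene lists or were named for the size of their difference, 10 were called under every alternative tried, and they are given first. *TotM* (FBgn0031701, 2L:5329857-5330464, + strand), a Turandot peptide induced by several stresses, showed one of the largest differences, -3.98 ± 0.44 on the log2 scale (adjusted p = 7.3e-05). It had 1.91 and 1.27 CPM in stressed M12D3 and 3.69 and 6.2 CPM in stressed M12N3, against 3.82 and 4.57 CPM in M12D3 controls and 5.53 and 3.17 CPM in M12N3 controls. With all 48 libraries normalized together, its level had a median of 2.76 CPM in the 4 M12 stress libraries, against 21.6 CPM in the 11 other cosmopolitan stress libraries (range 0.876 to 128). The controls lay the other way, with a median of 4.05 CPM in M12 and 2.27 CPM in the others. Its log2 fold changes were -1.40 in M12D3 and 0.16 in M12N3, against 0.72 in KL01 and 2.79 to 5.65 in the other 5 lines.

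Of these 10 genes, 2 concern fat and sugar. *Lsd-1* had log2 fold changes of -3.76 in M12D3 and -2.54 in M12N3, against -2.11 to -0.55 in the 6 other lines (difference -1.53 ± 0.22, adjusted p = 0.00095). Its level was 25.5 to 74 CPM in M12 stress libraries and 310 to 487 CPM in M12 controls, against 52.7 to 140 CPM in the other stress libraries and 144 to 388 CPM in the other controls. *sug* had log2 fold changes of -2.25 in M12D3 and -2.04 in M12N3, against -1.49 to 0.08 elsewhere (difference -1.50 ± 0.23, adjusted p = 0.0011). Its control levels were alike, with medians of 26.9 CPM in M12 and 28.5 CPM in the others, and the difference lay under stress, at medians of 5.72 CPM in M12 and 16.9 CPM in the others.

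Detoxification genes made up 3 more of the 10. *GstE1* rose in M12, but less than elsewhere: its log2 fold changes were 1.09 in M12D3 and 0.35 in M12N3, against 1.74 to 3.78 in the 6 other lines (difference -1.72 ± 0.26, adjusted p = 0.0011). Under stress it had a median of 81.5 CPM in M12 and 204 CPM in the others, and in controls 47.7 CPM in M12 and 39.7 CPM in the others. *Cyp6t1* had a higher control level in M12, a median of 62 CPM against 28.1 CPM, and had log2 fold changes of -1.13 in M12D3 and -0.95 in M12N3, against -0.36 to 0.91 elsewhere (difference -1.25 ± 0.24, adjusted p = 0.0079). *Ugt36D1* responded more in M12, by 1.10 in M12D3 and 0.55 in M12N3 against -0.30 to 0.35 elsewhere (difference 0.78 ± 0.10, adjusted p = 0.0004).

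The remaining 4 were *NtR*, *pwn*, *CG1113* and *CG34217*. *NtR* had log2 fold changes of -3.95 in M12D3 and -2.73 in M12N3, against -1.57 to -1.11 elsewhere (difference -2.09 ± 0.39, adjusted p = 0.0052). *pwn*, a gene needed for normal bristles and hairs (FBgn0003174, 2R:7282572-7300806, + strand), had the smallest adjusted p of those with a higher response. It had 22 to 49.5 CPM in M12 stress libraries and 14 to 17.9 CPM in M12 controls, against 5.26 to 11.7 CPM in the other stress libraries and 5.33 to 12.7 CPM in the other controls, so M12 lay above every other cosmopolitan library in both treatments. Its response was 1.60 in M12D3 and 0.74 in M12N3, against -1.04 to 0.34 elsewhere (difference 1.29 ± 0.14, adjusted p = 7.3e-05). *CG1113* had a low control level in M12 (median 0.605 CPM, against 4.18 CPM in the others) and a larger response (difference 1.55 ± 0.23, adjusted p = 0.0011), while its stress levels were not called different (adjusted p = 0.18). *CG34217* had log2 fold changes of 1.87 in M12D3 and 1.38 in M12N3, against 3.63 to 7.12 elsewhere (difference -2.83 ± 0.53, adjusted p = 0.0062).

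Responses of 6 antimicrobial peptides differed between M12 and the other backgrounds, but these calls depended on single libraries. In this fit 18 were tested, of which *DptB*, *AttA*, *AttB* and *AttC* had a lower response in M12 and *Drs* and *Drsl4* a higher one. For *Drsl4* this was a smaller decrease, -1.91 in M12D3 and -1.84 in M12N3 against a mean of -2.73 in the other backgrounds. Their lines ranged from -3.76 in M9N1 to -1.62 in KL01, so both M12 lines lay within that range. The list's median log2 fold change was -1.38 in M12D3 and -1.76 in M12N3, against -0.50 in KL02, 0.27 in C2D3, 0.31 in M9D3, 0.44 in M9N1, 1.94 in KL01 and 2.12 in C2N1. *DptB* showed the largest difference, -4.07 ± 0.87 (adjusted p = 0.015). It was already higher in M12 controls, at a median of 21.9 CPM against 2.09 CPM in the other controls, while its stress levels were not called different (medians 4.52 CPM in M12 and 5.89 CPM in the others, adjusted p = 0.29). *AttC* and *AttB* were also higher in M12 controls. *Drs* had the opposite pattern, a difference of 2.75 ± 0.63 (adjusted p = 0.022), from a response of 5.87 in M12D3 and 1.84 in M12N3, against -0.64 to 2.55 elsewhere. Without stress replicate 2 of M12N3 the list kept only the call of *Drs* (difference 3.12), and *Drsl4* differed by 0.71. Without control replicate 1 of M12D3 it kept only that of *Drsl4* (0.98), and *Drs* differed by 2.89. No call was thus kept in both fits. Without M9 the list had 1 higher and 3 lower. The sizes did not all shrink with the calls. The median difference of the list was -2.09 without stress replicate 2 of M12N3 and -2.06 without M9, against -1.88 with all libraries, and *DptB* differed by -3.79 and -4.26 in these fits but by -2.70 without control replicate 1 of M12D3.

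A minority of heat shock genes and 3 glutathione genes had a lower response in M12 than in the mean of the others, and these calls were lost without M9. Of the genes for Hsp70 and its partners, *Hsp68* (-2.18 ± 0.55, adjusted p = 0.04), *DnaJ-1* (-1.04 ± 0.20, adjusted p = 0.0079) and the co-chaperone *stv* (-0.81 ± 0.17, adjusted p = 0.016) were called among 16, and of 11 small heat shock proteins *Hsp26* (-1.97 ± 0.52, adjusted p = 0.049) and *Hsp27* (-1.87 ± 0.48, adjusted p = 0.041). None of the 5 was called where M9 was not used, though the difference stayed at -2.02 for *Hsp68*, -1.78 for *Hsp27* and -1.69 for *Hsp26* and was -0.74 for *DnaJ-1* and -0.64 for *stv*. The small heat shock list had a median difference of -0.42 without M9 and of -0.38 with it. Without stress replicate 2 of M12N3 1 of the 5, *DnaJ-1*, was called, and *Hsp68* differed by -1.85. The median of the Hsp70 list was 1.48 in M12D3 and 0.48 in M12N3, against 0.94 to 2.81 in the other lines, so M12D3 lay inside their range and M12N3 below it. *Gclm* (-1.13 ± 0.19, adjusted p = 0.0023), *Gclc* (-0.67 ± 0.14, adjusted p = 0.014) and *GstO3* (-1.55 ± 0.31, adjusted p = 0.0096) also had a lower response in M12 and were not called without M9, where they differed by -0.81, -0.32 and -1.39. *Gclm* was at 88.9 to 258 CPM in M12 stress libraries and 124 to 156 CPM in M12 controls, against 88.3 to 587 CPM in the other stress libraries and 87.1 to 154 CPM in the other controls. No Delta-class glutathione S-transferase was called, and *MtnA* was not (0.47, adjusted p = 0.35).

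Of the further calls, some are given here and the others with the results flagged for a closer look. *TotA* (-1.66) and *TotC* (-1.67) rose less in M12 from control levels that were higher, for *TotC* a median of 46.8 CPM in M12 controls against 5.66 CPM in the others. Their stress levels were also called higher in M12, for *TotC* a median of 218 CPM against 86.6 CPM in the other stress libraries. *Socs36E* differed by -0.40. *fit* fell further in M12 than in the mean of the others (-2.03 ± 0.36, adjusted p = 0.0042). Its log2 fold changes were -5.32 in M12D3 and -5.18 in M12N3. KL02 (-5.04) and C2D3 (-4.77) came close, and C2N1, KL01, M9D3 and M9N1 lay at -3.65 to -1.52. Its median control level was 167 CPM in M12, against 23 CPM in the other controls (range 4.25 to 63.6). The multidrug transporter *Mdr50* had the same kind of pattern in controls with a smaller increase (-2.08 ± 0.42, adjusted p = 0.01), at a median of 48.6 CPM in M12 controls against 6.04 CPM. Under stress both were still called higher in M12, with medians of 4.18 against 2.16 CPM for *fit* and 207 against 125 CPM for *Mdr50*. *ref(2)P* (-1.24), *Corp* (-1.04), *Xrp1* (-0.52) and *p53* (-0.38) had lower responses in M12. None of the 9 was called where M9 was not used.

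The M12D3 and M12N3 responses differed in size, and the number of genes that passed a test of that difference depended strongly on the method. The median absolute log2 fold change over the 11800 genes of the cosmopolitan fit was 0.31 in M12D3 and 0.204 in M12N3. In the other 6 lines it was 0.202 (KL02) to 0.353 (M9N1). The M12N3 value includes its stress replicate 2, the stress library nearest to the controls, and is not given without it. Of the 10955 genes tested, 9 were called (0.0822%), 5 with a higher and 4 with a lower log2 fold change in M12D3, and 1375 had an unadjusted p below 0.05. On the same libraries DESeq2 called 328, a replicate block gave 129 and no filter on low counts gave 112, and all 9 were among each of these. Leaving out any of the 4 control libraries left 0 calls in edgeR, with 947 to 1196 genes at an unadjusted p below 0.05, while leaving out stress replicate 1 of M12N3 gave 846 and leaving out its stress replicate 2 gave 87. Without stress replicate 1 of M12D3 2 genes were called.

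**Figure D4:**
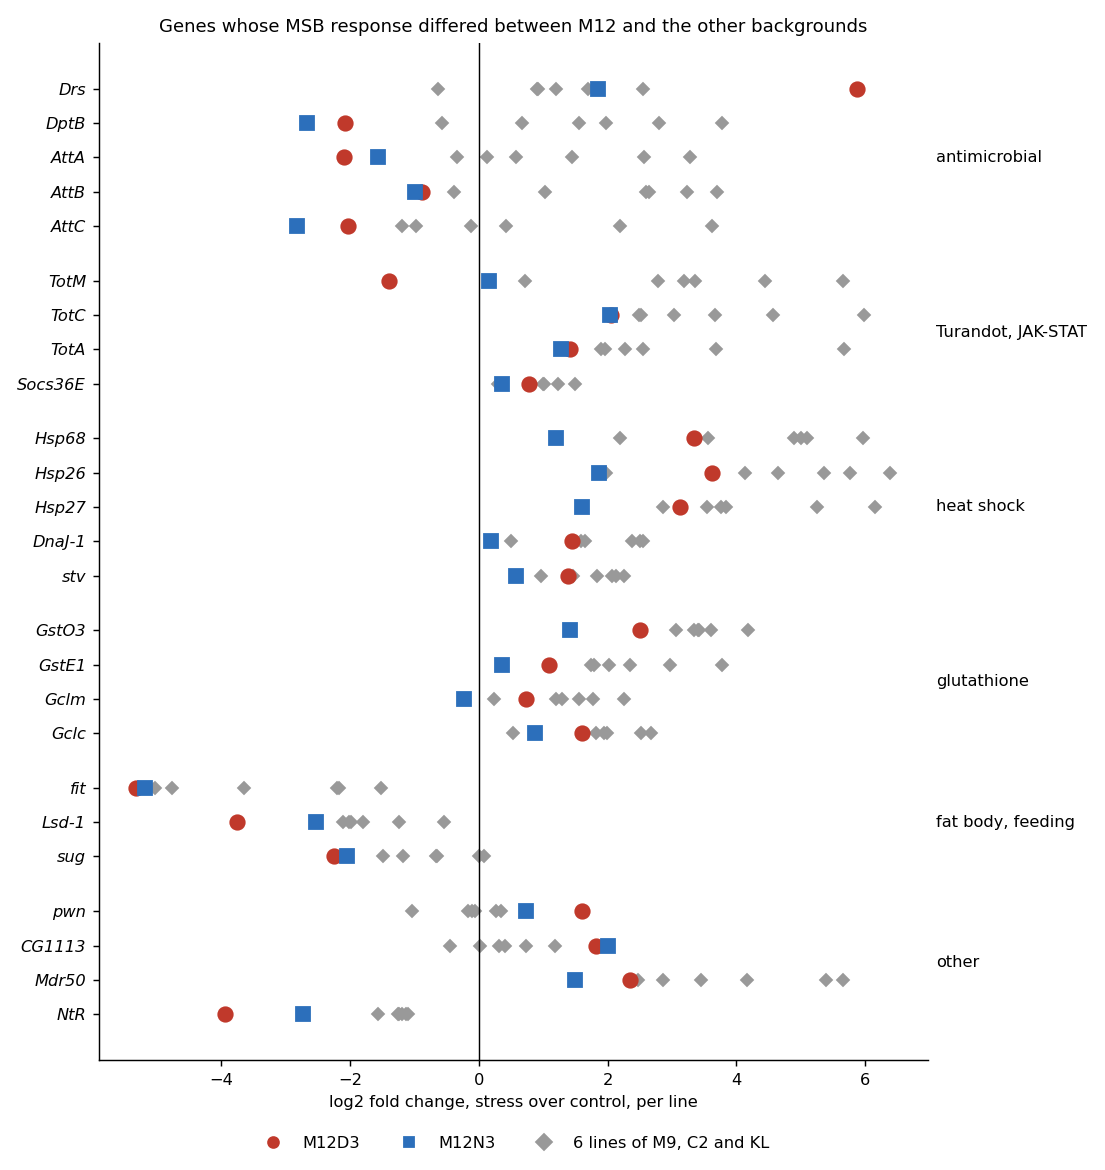
Log2 fold change under MSB of selected immune, heat shock, glutathione and metabolic genes in each cosmopolitan line, M12D3 and M12N3 first. *TotM* and *Lsd-1* lie apart from the other lines in both M12 lines, *Drs* is highest in M12D3, and the heat shock genes are lowest in M12N3.

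Of the 6 genes named for a line difference, 3 had a higher response in M12D3. *CG13868* (FBgn0034501, 2R:20308777-20316917, - strand) had 2826 and 3078 CPM in stressed M12D3 and 850.3 and 856 CPM in stressed M12N3, against 792 and 830.5 CPM in M12D3 controls and 820.2 and 828 CPM in M12N3 controls. Its log2 fold change was 1.86 in M12D3 and 0.05 in M12N3, a difference of 1.81 ± 0.15 (adjusted p = 0.0096), and it just missed the threshold in the test over both lines (adjusted p = 0.0504). *sel*, or seele, differed by 1.95 ± 0.17 (adjusted p = 0.0096), with 61.2 and 55.3 CPM in stressed M12D3 and 18 and 14.7 CPM in stressed M12N3, against 18.8 and 20.4 CPM in M12D3 controls and 20.4 and 22 CPM in M12N3 controls. *Pfas*, an enzyme of purine synthesis, rose over both lines and more in M12D3 (difference 1.32 ± 0.15, adjusted p = 0.028), with 589 and 586 CPM in stressed M12D3 and 251 and 224 CPM in stressed M12N3, against 139 to 156 CPM in the 4 controls.

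**Figure D5:**
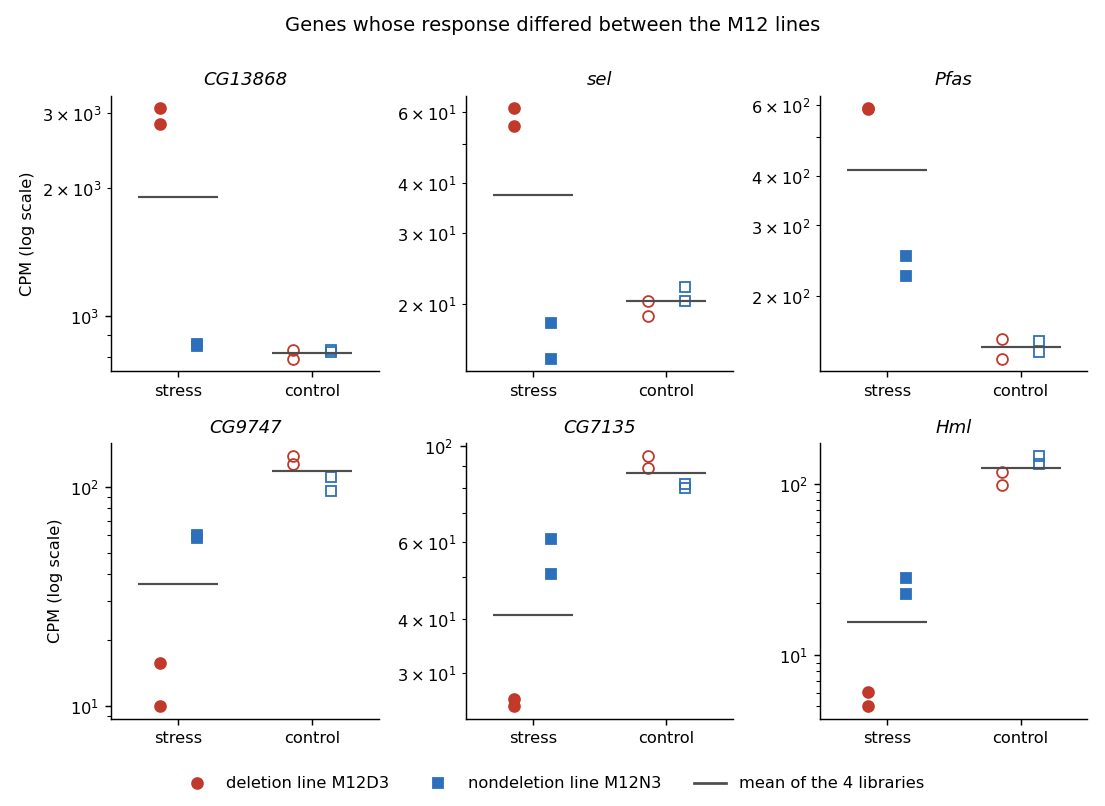
CPM of the 6 genes named for a line difference, in each stress and control library of M12D3 and M12N3. *CG13868*, *sel* and *Pfas* are higher in stressed M12D3 than in stressed M12N3, and *CG9747*, *CG7135* and *Hml* are lower.

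In the other direction, *CG9747*, a fatty acid desaturase, had 9.94 and 15.6 CPM in stressed M12D3 and 58.3 and 60.4 CPM in stressed M12N3, against 127 and 139 CPM in M12D3 controls and 95.6 and 111 CPM in M12N3 controls (difference -2.58 ± 0.26, adjusted p = 0.023). *CG7135* differed by -1.30 ± 0.14 (adjusted p = 0.028), with 25.2 and 26.2 CPM in stressed M12D3 and 50.6 and 60.9 CPM in stressed M12N3, against 80.1 to 94.8 CPM in the 4 controls. The hemocyte gene *Hml* had 6.08 and 5.01 CPM in stressed M12D3 and 22.6 and 28.1 CPM in stressed M12N3, against 117 and 98.7 CPM in M12D3 controls and 146 and 130 CPM in M12N3 controls (difference -1.85 ± 0.21, adjusted p = 0.028). All 3 fell over both lines, and further in M12D3. The remaining calls were *brwl* (0.99), *CG42751* (2.71) and *CG14495* (-2.19). *MtnA* was not called between the lines (0.53 ± 0.33, adjusted p = 0.55).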

How the data were processed

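Each library was made from messenger RNA of pooled male heads and read as paired ends. The authors mapped reads to FlyBase transcripts with NextGenMap and deposited raw counts per gene in 1 table. How reads shared by paralogs or overlapping genes were assigned is not given in the sources used here. The submitters' processing notes name DESeq2 1.28.1 and R 4.0.0.

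The counts were analysed as deposited in R 4.3.3 with edgeR 4.0.16 (trimmed-mean normalization, filterByExpr, quasi-likelihood F test, two-sided, Benjamini-Hochberg over all tested genes, threshold 0.05). The M12 response was fitted on 8 libraries with line as block. The comparison with other backgrounds used 31 libraries with 1 group per line and treatment. Stress replicate 1 of M9N1 was left out as the farther M9N1 stress library in a principal component analysis of the 500 most variable genes over 48 libraries, since the study left out 1 M9N1 library. Log2 CPM used a prior count of 2. Of 13957 genes, 13908 were matched to names and BDGP6 positions by ID, 43 by CG number and 6 not at all.

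Named genes were the 10 largest changes in each direction with a mean log2 CPM of at least 1 and no overlap between treatments, the 8 largest differences in each direction from the other backgrounds with both M12 lines outside the range of the other 6, the 3 smallest adjusted p in each direction between the M12 lines, up to 4 called members of each gene list, and *MtnA*. Further list members were named after their values were seen. The members and gene lists were chosen with earlier results of these data known. The study describes the replicates as biological, 2 per line and treatment. Replicate numbers did not pair libraries, since deviations of same-numbered libraries correlated at 0.0372 in M12D3 and 0.0335 in M12N3. The alternatives were relative log expression size factors, DESeq2 1.42.0, no low-count filter, a threshold of 0.01, a replicate block, treatment as the only term, other sets of libraries and backgrounds, and each M12 library left out. A planned description of promoter motifs was not run, as no promoter sequences were used here.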

Additional observations from a re-analysis of the deposited data

Results flagged for a closer look

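Of the genes of the lists and of the named rule, 53 had a response in M12 that differed from the mean of the other cosmopolitan backgrounds, and each is given with the difference on the log2 scale. Higher and lower refer to the signed log2 fold change, so a higher response can be a smaller decrease and a lower one a larger decrease. Among genes named for size, the response was higher in M12 in *CG1773* (1.89), *gas* (1.63), *CG4962* (1.60), *CG1113* (1.55), *Cpr72Ec* (1.40), *pwn* (1.29), *CG42806* (1.25) and *CG14257* (1.15), and lower in *DptB* (-4.07), *TotM* (-3.98), *AttA* (-3.11), *AttC* (-3.08), *AttB* (-3.08), *CG34217* (-2.83), *NtR* (-2.09) and *Mdr50* (-2.08). *CG1773* was at or below 0.247 CPM in all M12 libraries, so its difference rests on few counts.

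Immune and stress peptide genes with a higher response in M12 were *Drs* (2.75), *BomT1* (0.90) and *Drsl4* (0.86), and those with a lower one were *TotC* (-1.67), *TotA* (-1.66), *PGRP-LF* (-0.69) and *Socs36E* (-0.40). *BomT1* and *Drsl4* fell in both M12 lines, but less than in the mean of the other backgrounds. Heat shock genes were lower: *Hsp68* (-2.18), *Hsp26* (-1.97), *Hsp27* (-1.87), *DnaJ-1* (-1.04) and *stv* (-0.81). Glutathione genes were lower: *GstE1* (-1.72), *GstO3* (-1.55), *Gclm* (-1.13) and *Gclc* (-0.67). Among detoxification genes *Ugt36D1* (0.78) and *Ugt49C1* (0.63) were higher, and *Cyp6t1* (-1.25), *Cyp4p3* (-1.09), *Jheh2* (-0.99), *Cyp309a1* (-0.94), *Cyp4p2* (-0.82) and *Cyp6a2* (-0.71) were lower.

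Genes of feeding and growth signals were lower: *fit* (-2.03), *Lsd-1* (-1.53), *sug* (-1.50), *NLaz* (-0.83) and *daw* (-0.56). Of these, *fit*, *Lsd-1* and *sug* fell further in M12 than in the mean of the other backgrounds, *NLaz* rose less and *daw* did not rise. The rest were lower as well: the cuticle gene *Cpr49Ab* (-3.29), at 0 to 0.0454 CPM in stressed M12, the autophagy receptor *ref(2)P* (-1.24), *Corp* (-1.04), the JNK target *Mmp1* (-0.73), *Ctr1B* (-0.69), *Xrp1* (-0.52), *p53* (-0.38) and *kay* (-0.35).

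Between M12D3 and M12N3 the difference in log2 fold change was 1.95 for *sel*, 1.81 for *CG13868*, 1.32 for *Pfas*, -1.30 for *CG7135*, -1.85 for *Hml* and -2.58 for *CG9747*.

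The unused library, stress replicate 1 of M9N1, had a count in 13521 genes, against 11853 to 12572 genes in the controls and at most 12736 in the other 47 libraries.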

How the results depend on the processing

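The M12 response kept its direction in all 158 genes named for it, and 125 of them were called under every alternative (129 apart from the threshold of 0.01, which left 2191 of the 4012 calls). The number of calls lay between 2825 and 4621 when single libraries were left out. The comparison with the other backgrounds called 83 genes at 0.01, 535 in DESeq2, 188 with both M9N1 stress libraries kept, 876 with the other M9N1 stress library left out, 93 where M9 was not used and 521 where KL was not used, and 100 to 401 when single M12 libraries were left out, in place of 292. The causes of these changes were not tested, and all 53 named genes kept their direction. The difference between the M12 lines moved most: 112 calls with no filter on low counts, 2 at 0.01, 328 in DESeq2, 2 in the fit over all cosmopolitan lines and 0 to 846 when single libraries were left out, in place of 9, with the direction of the 6 named genes kept. Leaving out a library leaves 1 library in a line and treatment, which is then assumed to vary like the others. With the replicate number as block the 3 comparisons called 3222, 222 and 129 genes. The libraries share only a number, as same-numbered libraries did not deviate together. Relative log expression size factors changed no list's direction and gave 4043, 298 and 9 calls. The replicates, 2 per line and treatment, limit the precision more than depth does for all but genes of a few counts in controls.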

Other observations

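The genes that set the M12 response apart from the other backgrounds were counted by chromosome arm. Of the 39 genes with a higher response 13 lay on 2R (33.3%), against 20.5% of the genes tested, and 3 on the X (7.69%). Of the 253 with a lower response 62 lay on 2R (24.5%) and 20 on the X (7.91%), against 16% of the genes tested. These shares were noticed in the data and not tested.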
